A study of Mus musculus with 2 samples.

Results

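Marginal-zone-like B cells of the popliteal lymph node (PLN) are described here as the B cells that held several transcripts of Cr2, the gene of complement receptor CD21, and none of Fcer2a, the gene of the low-affinity IgE receptor CD23. They were chosen by their own counts. B cells were first gated as cells with 5000 to 15000 unique molecular identifiers (UMIs, each standing for 1 captured transcript), a fraction of at least 0.0025 of these from Cd79a, Cd79b and Ms4a1, no more than 1 UMI of Cd3d, Cd3e and Cd3g together, fewer than 20 of Jchain, fewer than 4 of Cd83 and Egr3, and fewer than 4 of Ifit1, Ifit3, Ifit3b and Isg15. Of these gated B cells, the ones with 0 Fcer2a UMIs and 4 or more Cr2 UMIs are called CD21-high CD23-negative. There were 350 in the Advanced library and 559 in the Early library, 909 of 11065 gated B cells and of 16443 barcodes in all. Both libraries came from male C57BL/6 mice with a TNF transgene (TNF-Tg), which drives inflammatory-erosive arthritis. The Advanced library pooled 6 PLNs of 3 mice over 8 months of age, and the Early library pooled 6 PLNs of 3 mice aged 5 to 6 months. All mice carried the transgene, and no wild-type cells were analysed here. Live nucleated cells were sorted with no selection for lineage. With 1 pooled library per stage, stage, age and library cannot be told apart and no test was possible. Levels are given as CPM (a gene's UMIs per 1000000 UMIs summed over a class), and every interval is a 95% interval that covers counting error only.

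Marginal zone B cells are known from the mouse spleen, where they lie at the border of the white pulp and meet antigen carried in the blood. High CD21 lets them take up complement-coated antigen, CD1d presents lipids, and the sphingosine 1-phosphate receptors S1PR1 and S1PR3 hold them in place. They form under Notch2 signalling, of which the ubiquitin ligase gene Dtx1 is a target, and they answer quickly with IgM. Follicular B cells, the main B cells of lymph nodes, instead carry CD23 and much IgD and enter nodes with the help of CCR7. In mice, lymph nodes are not regarded as a usual site of marginal zone B cells.

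The class was a cut through counts that showed no gap. Counts this low cannot tell a continuous range from separate groups of cells. Among gated B cells with no Fcer2a UMI, those with 3, 4 and 5 Cr2 UMIs numbered 129, 103 and 80 in the Advanced library and 218, 157 and 130 in the Early library, with no gap at the threshold. Among cells with 4 or more Cr2 UMIs, those with 0, 1 and 2 Fcer2a UMIs numbered 350, 320 and 237 in the Advanced library and 559, 415 and 361 in the Early library. The median CD21-high CD23-negative cell held 5 Cr2 UMIs in each library, and 29.4% (Advanced) and 28.1% (Early) of the cells stood exactly at 4. Just inside the threshold, cells with 4 Cr2 UMIs and no Fcer2a UMI had 60.5 CPM of Fcrl5 in the Advanced library, and just outside, cells with 3 had 45.9 CPM. In the Early library these were 54.4 CPM inside and 44.4 CPM outside. Cells with 4 or more Cr2 UMIs but 1 Fcer2a UMI had 39.4 CPM (Advanced) and 38.9 CPM (Early). Not every marker was higher just inside the Cr2 threshold. In the Advanced library Dtx1 had 91.3 CPM inside against 97.8 CPM outside, and Cd9 22.2 against 27.9 CPM. In the Early library these were 145 against 135 CPM and 39.0 against 35.7 CPM. S1pr3 was lower inside in both libraries, but on only 6 UMIs inside and 10 outside (Advanced) and 9 and 13 UMIs (Early). Myof was higher inside in the Advanced library alone. For Fcrl5 the Advanced intervals inside (44.7 to 79.9 CPM) and outside (33.6 to 61.2 CPM) overlapped. The cells of the class were deeper than the other gated B cells, with medians of 8042 against 7241.5 UMIs in the Advanced library and 7143 against 6448 UMIs in the Early library. Their mitochondrial share of UMIs was 5.55% against 5.40% (Advanced) and 5.43% against 5.24% (Early). The libraries shared 20 barcodes, and 0 barcodes belonged to the class in both. No doublets were removed.

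Genes known from splenic marginal zone B cells were higher in these cells. Of 18 such genes, 15 were measured (at least 10 CPM in the class or in the other gated B cells, in both libraries), and in all 15 the interval of the ratio to the other gated B cells lay above 1 in both libraries, where 4.53% of all 6667 measured genes did so. The median log2 ratio of the 15 was 0.86 in the Advanced and 1.04 in the Early library, against -0.03 and 0.00 over all measured genes. Because the same cells supplied the counts that chose the class, these values are a description and not a test. Fcrl5, Dtx1 and Cd9, which name the class together with Cr2 but took no part in the rule, were all higher. Fcrl5, an Fc receptor-like protein of B cells, had 57.0 against 24.96 CPM (2.28, 1.92 to 2.70) in the Advanced library and 65.2 against 24.7 CPM (2.64, 2.30 to 3.02) in the Early library, each given as the class against the other gated B cells, with the ratio and its interval in parentheses. Dtx1 had 123 against 67.3 CPM (1.82, 1.62 to 2.03) in the Advanced library and 168 against 81.9 CPM (2.06, 1.90 to 2.23) in the Early library. The tetraspanin gene Cd9 had 30.7 against 11.9 CPM (2.58, 2.03 to 3.25) in the Advanced library and 43.2 against 15.7 CPM (2.74, 2.32 to 3.24) in the Early library. For each of the 3 genes the class stood above the other gated B cells in both libraries. These genes were chosen with earlier results of these data known, so their levels are no independent support for the name. Against the CD21-low CD23-negative cells alone, the interval for Cd9 did not lie above 1 in both libraries. Cr2 itself, which the rule used, was at 753 against 355 CPM in the Advanced library and 814 against 379 CPM in the Early library, and Fcer2a was at 0 by construction, against 375 and 352 CPM.

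**Figure D1:**
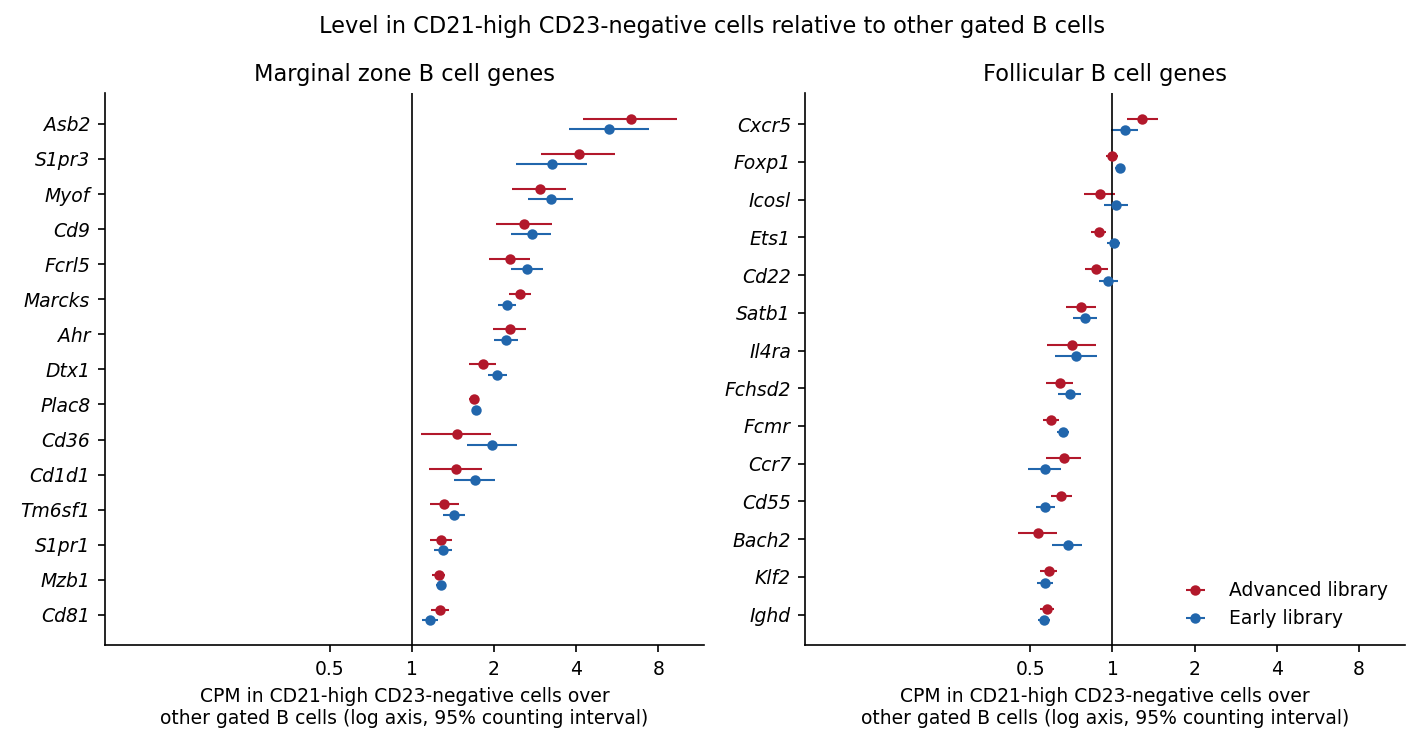
Ratio of the CPM in CD21-high CD23-negative cells to that in other gated B cells (x axis, log scale) for 15 measured marginal zone and 14 of the 15 measured follicular genes, with a point for each library and bars for 95% counting intervals. All 15 marginal zone genes lie above 1 in both libraries, led by Asb2 at 6.34 (Advanced) and 5.29 (Early), and the intervals of 9 of the 14 follicular genes drawn lie below 1 in both, as does that of the follicular gene not drawn.

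Among the marginal zone genes Asb2 and S1pr3 had the widest ratios, but both reached the 10 CPM limit in the class alone, so that a wide ratio follows in part from the limit. Asb2, a subunit of a ubiquitin ligase on chromosome 12 (103321142 to 103356001, mm10), had 14.3 against 2.26 CPM (6.34, 4.25 to 9.34) in the Advanced library and 13.4 against 2.53 CPM (5.29, 3.76 to 7.38) in the Early library. A UMI of it was seen in 32 of the 350 Advanced and 39 of the 559 Early cells of the class, so its level rests on few cells. S1pr3, the sphingosine 1-phosphate receptor typical of marginal zone B cells (chromosome 13, 51408639 to 51422797), had 19.5 against 4.76 CPM (4.09, 2.97 to 5.56) in the Advanced library and 14.3 against 4.38 CPM (3.27, 2.41 to 4.40) in the Early library. Myof, the membrane repair protein myoferlin, had 33.4 against 11.4 CPM (2.94, 2.33 to 3.67) and 34.3 against 10.6 CPM (3.22, 2.65 to 3.90) in the same order. Marcks, a membrane-bound substrate of protein kinase C, was the most abundant of the genes beyond 2-fold, with 197 against 78.9 CPM (2.50, 2.28 to 2.73) and 185 against 82.9 CPM (2.23, 2.06 to 2.41). The ligand-activated transcription factor gene Ahr had 84.3 against 36.9 CPM (2.28, 1.98 to 2.62) and 107 against 48.3 CPM (2.21, 1.99 to 2.45). These ratios were of like size in both libraries. Smaller ratios, Advanced before Early, were seen for Plac8 (1.69 and 1.71), Cd1d1 (1.45 and 1.70), the scavenger receptor gene Cd36 (1.46 and 1.97), S1pr1 (1.28 and 1.30), the IgM assembly factor gene Mzb1 (1.25 and 1.28) and the tetraspanin gene Cd81 (1.27 and 1.16).

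Across all genes, few differed by as much. Of 6667 genes at 10 CPM or more, with the genes of the rule left out, 9 had an interval wholly above 2-fold in both libraries (0.135% of those measured) and 2 had one wholly below (0.03%). At 1.5-fold there were 28 higher (0.42%) and 13 lower (0.195%). Since the class was chosen from the same cells, nothing is read from these shares. The 9 were Asb2, S1pr3, Myof, Cd9 and Marcks of the marginal zone genes, and Pla2g7, Nebl, Ffar2 and I830077J02Rik, which are not in that list. Of these 9, Asb2, S1pr3, Pla2g7, Ffar2 and I830077J02Rik reached 10 CPM in the class alone. Against the CD21-low CD23-negative cells 10 genes passed the 2-fold limit, 2 higher and 8 lower in the class, and of these Asb2 and I830077J02Rik were among the 11. Against the CD21-high CD23-positive cells 3 did, 2 higher and 1 lower, namely Asb2, Pla2g7 and Pcp4. Pla2g7, a secreted enzyme that breaks down platelet-activating factor, had 26.3 against 6.47 CPM (4.06, 3.09 to 5.29) in the Advanced library and 16.9 against 3.21 CPM (5.26, 3.89 to 7.07) in the Early library. I830077J02Rik had 31.7 against 8.44 CPM (3.76, 2.95 to 4.77) and 35.2 against 7.54 CPM (4.67, 3.82 to 5.69). Nebl, of the nebulin family of actin-binding proteins, had ratios of 3.05 and 3.30, and Ffar2, a receptor for short-chain fatty acids, of 3.13 and 2.80. The 2 lower genes were Rflnb (0.194 and 0.238) and Pcp4, a calmodulin-binding protein (0.170 and 0.302). Both reached 10 CPM in the other gated B cells alone, so that a low ratio follows in part from the limit. In the class Rflnb had 2.39 and 3.28 CPM and Pcp4 3.41 and 4.93 CPM, Advanced before Early. Neither passed the 2-fold limit after thinning, with Cr2 at 6 or more, or with 0 or 1 Fcer2a UMIs allowed. The log2 ratios of the libraries had a Pearson r of 0.553 across the 6667 genes, which are not independent replicates and whose low counts add noise to each ratio.

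**Figure D2:**
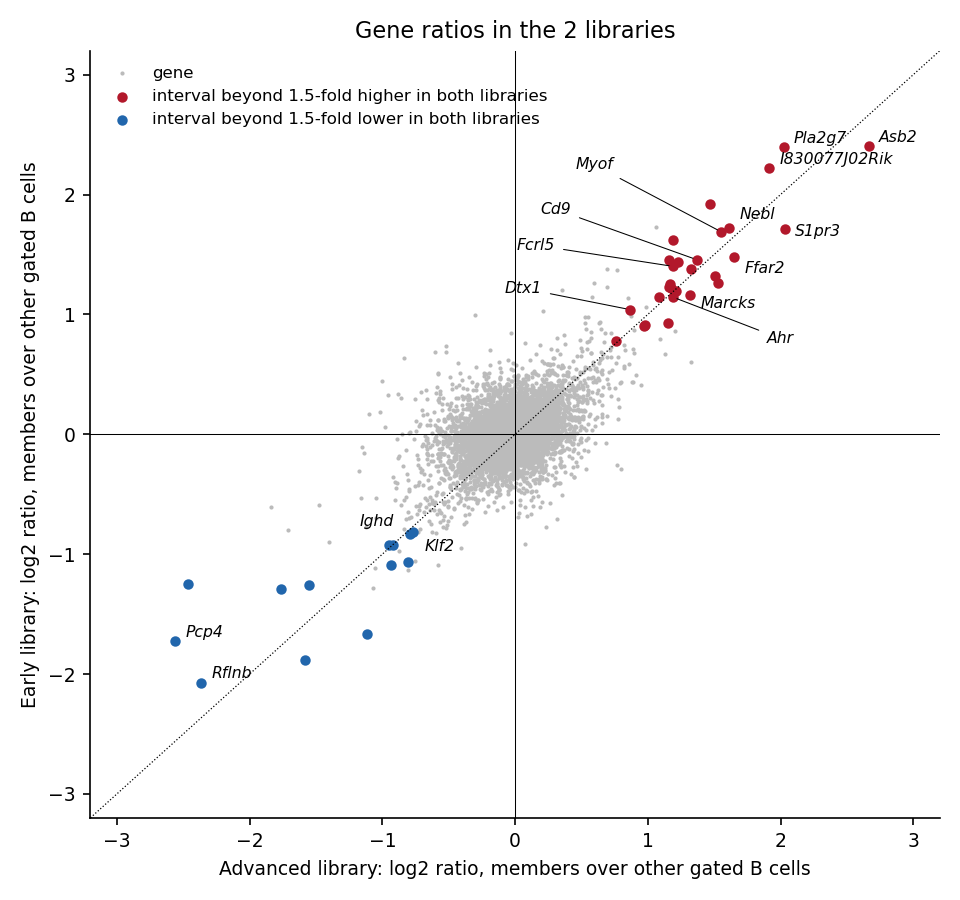
Log2 ratio of CD21-high CD23-negative cells (members) over other gated B cells in the Advanced library (x axis) and the Early library (y axis), 1 point per gene. Coloured points are genes whose intervals lie beyond 1.5-fold in both libraries, 28 of them higher (upper right) and 13 lower (lower left).

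Beyond 1.5-fold, further genes were higher in the class in both libraries. The cyclic AMP phosphodiesterase genes Pde8a (ratios of 2.12 and 2.21, Advanced before Early) and Pde4d (2.23 and 2.34) were both higher. The ubiquitin ligase gene Nedd4 had ratios of 2.23 and 2.74, the cadherin gene Cdh17 of 2.34 and 2.71, Pmepa1, an inhibitor of TGF-beta signalling, of 2.51 and 2.60, the phosphatase gene Ptpn14 of 2.89 and 2.40, and the G protein-coupled receptor gene Gpr34 of 2.24 and 2.38. On the lower side stood Ms4a4c (0.522 and 0.470), the inhibitory surface ligand gene Cd200 (0.517 and 0.526), Scimp, an adaptor in MHC class II signalling (0.295 and 0.409), Stmn1, a microtubule regulator of dividing cells (0.462 and 0.315), and the intermediate filament gene Vim (0.572 and 0.477). Vim had 78.8 against 138 CPM in the Advanced library and 56.5 against 119 CPM in the Early library.

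Genes of follicular B cells were lower. All 15 in the list were measured, 0 lay above 1 in both libraries and 10 lay below 1 in both, where 5.04% of all measured genes did, and the median log2 ratios were -0.59 (Advanced) and -0.52 (Early). Ighd, the IgD heavy chain, had 403 against 699 CPM (0.576, 0.543 to 0.611) in the Advanced library and 395 against 705 CPM (0.561, 0.534 to 0.589) in the Early library. Klf2, the transcription factor that drives S1pr1 in resting lymphocytes, had 277 against 474 CPM (0.585, 0.545 to 0.628) and 227 against 399.9 CPM (0.567, 0.531 to 0.605). Both genes were lower in the class in both libraries. Ccr7 had ratios of 0.663 and 0.565, the complement regulator gene Cd55 of 0.649 and 0.568, the IgM Fc receptor gene Fcmr of 0.596 and 0.659 and the repressor gene Bach2 of 0.534 and 0.684. The follicle-homing receptor gene Cxcr5 did not share this direction, with 87.7 against 68.2 CPM (1.29, 1.13 to 1.46) in the Advanced library and 80.9 against 72.8 CPM (1.11, 0.992 to 1.24) in the Early library, and Foxp1, Ets1, Icosl and Cd22 had ratios between 0.87 and 1.07.

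The other gated B cells mix 3 classes, so the cells were set against each of them. Against the CD21-high CD23-positive cells, 12 of the 15 marginal zone genes lay above 1 in both libraries, where 2.79% of all measured genes did, with median log2 ratios of 0.63 (Advanced) and 0.69 (Early). The exceptions were Cd1d1, Cd36 and Tm6sf1, a membrane protein gene. Asb2 had 14.3 against 3.47 CPM (4.13, 2.61 to 6.56) in the Advanced library and 13.4 against 3.73 CPM (3.59, 2.40 to 5.40) in the Early library in this comparison. Dtx1 was nearer, with 123 against 96.0 CPM (1.28, 1.13 to 1.44) and 168 against 106 CPM (1.59, 1.45 to 1.74), and Notch2 had 78.5 against 79.6 CPM (0.986, 0.850 to 1.14) and 83.3 against 80.2 CPM (1.04, 0.917 to 1.17), intervals that held 1. Of the follicular genes, 11 of 15 lay below 1, where 4.5% of all measured genes did. Against the CD21-low CD23-positive cells, 15 marginal zone genes lay above 1 (6.07% of all measured genes), with medians of 1.35 and 1.47, and 10 follicular genes lay below (6.18% of all). Against the CD21-low CD23-negative cells 12 marginal zone genes lay above (3.93% of all), with medians of 0.55 and 0.60, and Cd1d1, Cd9 and Mzb1 did not. In that last comparison 6 follicular genes lay below 1 (3.4% of all) and 2 above, with medians of -0.08 and -0.11. Ighd, for example, had 403 CPM in the class, 452 CPM in CD21-low CD23-negative, 687 CPM in CD21-high CD23-positive and 772 CPM in CD21-low CD23-positive cells of the Advanced library.

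The same genes moved in steps along the counts that the rule reads. In cells without an Fcer2a UMI, Dtx1 had 52.1, 97.8 and 145 CPM at 0, 3 and 8 or more Cr2 UMIs in the Advanced library and 59.0, 135 and 200.3 CPM in the Early library. In cells with an Fcer2a UMI it had 31.4, 65.4 and 118 CPM (Advanced) and 53.0, 79.4 and 144 CPM (Early). Dtx1 was thus higher at high Cr2 whether or not Fcer2a was counted. Cd9 differed more with Fcer2a: among CD21-high cells it had 30.7, 15.9, 20.2, 9.26 and 8.74 CPM at 0, 1, 2, 3 to 4 and 5 or more Fcer2a UMIs in the Advanced library, and 43.2, 18.3, 17.3, 11.6 and 7.02 CPM in the Early library. Along the same steps Ighd went the other way, with 403 CPM at 0 and 792 CPM at 5 or more Fcer2a UMIs in the Advanced library, and 395 and 757 CPM in the Early library. Cells with 8 or more Cr2 UMIs are also deeper cells, and the part of depth in these steps was not tested.

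**Figure D3:**
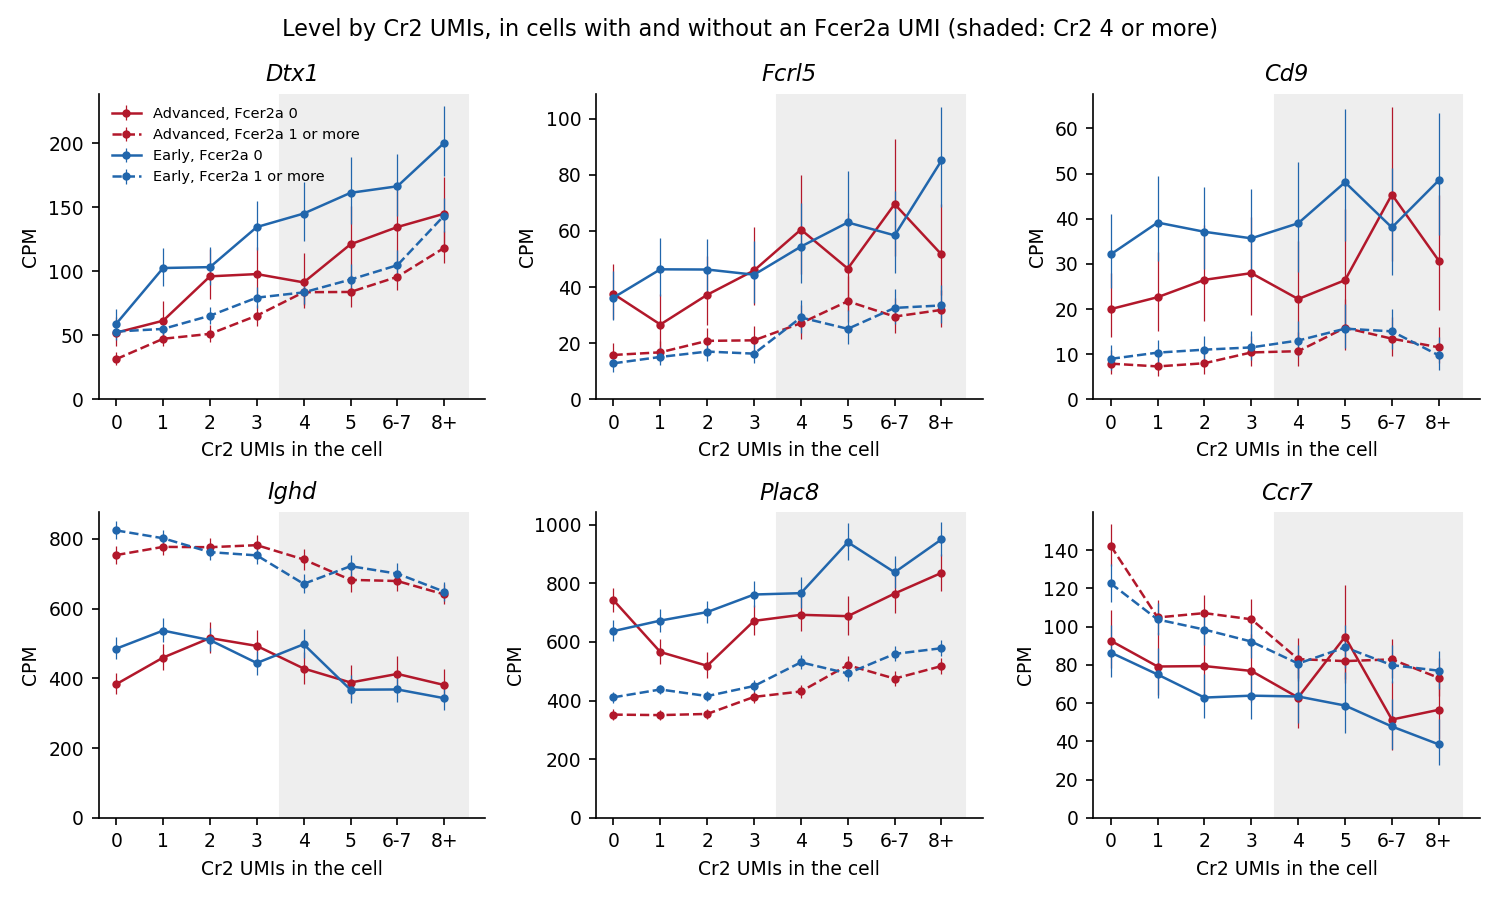
CPM (y axis) of 6 genes by the number of Cr2 UMIs in the cell (x axis), in cells with 0 Fcer2a UMIs (solid) and 1 or more (dashed) of the Advanced and Early libraries, with 95% counting intervals. Dtx1 is higher at high Cr2 on both kinds of line, whereas Cd9 is high and Ighd is low where Fcer2a is 0.

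Of the Notch pathway, a few members were higher and most were level. Of 17 measured, 4 lay above 1 in both libraries (Dtx1, Hes1, Maml2 and Taok3; 4.53% of all measured genes did) and 0 below, and the median log2 ratio of the list was 0.04 (Advanced) and 0.06 (Early). Hes1, a repressor switched on directly by Notch, had 245 against 151 CPM (1.62, 1.49 to 1.75) in the Advanced library and 215 against 137 CPM (1.57, 1.46 to 1.68) in the Early library. Maml2, a co-activator that joins the Notch complex on DNA, had ratios of 1.54 and 1.44, and Taok3, a kinase needed in mice for marginal zone B cells to form, of 1.18 and 1.22. Notch2, the receptor, had 78.5 against 70.1 CPM (1.12, 0.974 to 1.28) and 83.3 against 68.4 CPM (1.22, 1.09 to 1.36), so its interval lay above 1 in the Early library alone. Rbpj, the DNA-binding partner of Notch, had ratios of 0.989 and 0.931, the protease gene Adam10 of 1.03 and 1.08, and the fringe genes Mfng and Lfng of 0.942 and 0.936 and of 0.904 and 0.809. Against the CD21-high CD23-positive cells alone, 2 of the 17 lay above 1 in both libraries (Dtx1 and Hes1; 2.79% of all measured genes did) and 0 below. Maml2 and Taok3 did not in that comparison, and the medians were -0.02 (Advanced) and 0.02 (Early). The promoters of Cr2, which chose the class, of S1pr3 and of the Notch target Dtx1 are shown, as RefSeq gives them on GRCm38.p6 from 250 bases before to 50 after the start site, because RBPJ is known to bind the letters TGGGAA. Capitals mark TGGGAA or its complement TTCCCA, searched on both strands.
Cr2 (chr1:195176670-195176969, minus strand): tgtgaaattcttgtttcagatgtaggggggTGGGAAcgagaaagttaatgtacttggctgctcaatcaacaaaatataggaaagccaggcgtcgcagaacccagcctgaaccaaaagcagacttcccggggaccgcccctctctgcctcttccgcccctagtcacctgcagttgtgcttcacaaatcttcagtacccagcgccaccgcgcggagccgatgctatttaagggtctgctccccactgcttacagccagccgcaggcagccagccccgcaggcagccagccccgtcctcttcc
S1pr3 (chr13:51408368-51408667, plus strand): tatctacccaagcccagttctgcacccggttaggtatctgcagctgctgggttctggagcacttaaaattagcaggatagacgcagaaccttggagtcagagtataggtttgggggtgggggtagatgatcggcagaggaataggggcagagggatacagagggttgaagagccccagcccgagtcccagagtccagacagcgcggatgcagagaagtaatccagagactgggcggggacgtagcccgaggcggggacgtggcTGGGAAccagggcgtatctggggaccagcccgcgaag
Dtx1 (chr5:120711620-120711919, minus strand): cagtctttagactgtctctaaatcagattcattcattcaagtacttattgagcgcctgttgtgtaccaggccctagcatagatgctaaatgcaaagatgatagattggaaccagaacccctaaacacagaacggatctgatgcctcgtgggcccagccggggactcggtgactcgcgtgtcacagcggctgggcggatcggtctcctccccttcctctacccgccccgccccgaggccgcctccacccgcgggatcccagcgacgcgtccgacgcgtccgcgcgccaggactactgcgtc
The Cr2 and S1pr3 windows held 1 match each and the Dtx1 window 0. Such a match is frequent, since 25.6% of the 32851 promoters in the table held one. Counted per gene it was 28.3% of 27025 genes, 5 of the 11 marginal zone genes found in the table and 11 of its 20 Notch pathway genes. A match is a run of letters in a short window and describes no binding.

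Genes of movement between blood, node and follicle were split. Of 19 measured, 3 lay above 1 in both libraries (S1pr1, S1pr3 and Cd69; 4.53% of all measured genes did) and 5 below (5.04% of all), among them Ccr7, Klf2, S1pr4 and the integrin gene Itgb7. S1pr1, which draws lymphocytes out of the node, had 165 against 129 CPM (1.28, 1.16 to 1.41) in the Advanced library and 179 against 138 CPM (1.30, 1.201 to 1.40) in the Early library. Cd69, which holds S1PR1 back from the surface, had ratios of 1.15 and 1.27, S1pr4 of 0.702 and 0.592, and Itgb7, a chain of a gut-homing integrin, of 0.812 and 0.690. The chemokine receptor genes Cxcr4 (0.851 and 0.962) and Ccr6 (0.999 and 0.964) had intervals that held 1 in both libraries. Gpr183, which guides B cells to the outer follicle, had 285 against 242 CPM (1.18, 1.09 to 1.26) in the Advanced library and 228 against 227 CPM (1.00, 0.939 to 1.07) in the Early library.

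Genes of sensing and activation showed small ratios. The gate had left cells with 4 or more UMIs of Cd83 and Egr3 out of the class and the other gated B cells alike. Its part in these ratios was not tested. Of all measured genes 4.53% lay above 1 in both libraries and 5.04% below, and of 10 measured Toll-like receptor genes and partners 3 lay above and 0 below. Cd180, a Toll-like receptor homologue of B cells, had 327 against 233 CPM (1.40, 1.31 to 1.5) and 296 against 206 CPM (1.44, 1.35 to 1.52), and its partner Ly86 (1.17 and 1.25) and the TLR4 partner Ly96 (1.44 and 1.91) were the others. Of 20 activation genes, 6 lay above and 2 below, among them the co-stimulator gene Cd86 with 68.6 against 45.6 CPM (1.504, 1.29 to 1.74) and 78.1 against 52.4 CPM (1.49, 1.33 to 1.68) and Myc with ratios of 1.38 and 1.29. Of 11 immediate early genes 1 lay above (Jun, 1.23 and 1.42) and 4 below, including Fos (0.681 and 0.778) and Junb (0.850 and 0.756). In the B cell receptor list 3 of 19 lay above and 2 below, with the kinase gene Lyn at 1.11 and 1.22 and the phosphatase gene Ptpn22 at 1.71 and 1.57. Of 13 measured MHC class II genes 8 lay below by small amounts, with Cd74, the invariant chain, at 0.934 and 0.932 and H2-Ob, which tempers peptide loading, at 0.781 and 0.797, and 1 lay above, the thiol reductase gene Ifi30 (1.17 and 1.21). Of 13 genes of the BAFF and APRIL receptors and their signalling 1 lay above and 2 below, counts near the shares over all genes, with the BAFF receptor gene Tnfrsf13c at 0.804 and 0.870 and the TACI gene Tnfrsf13b at 1.01 and 1.01. Of 11 complement and Fc receptor genes 3 lay above (Fcrl5, Cd81 and the complement regulator gene Cr1l, 1.19 and 1.33) and 3 below, lowest of them the neonatal Fc receptor gene Fcgrt (0.477 and 0.412).

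Some genes that equip a B cell for secretion were higher. Of 18 measured genes of antibody secretion and the unfolded protein response, 5 lay above 1 in both libraries and 2 below, beside 4.53% and 5.04% of all measured genes. The 5 were Mzb1, the stress-response factor gene Xbp1 (1.23 and 1.205), the chaperone genes Hspa5 (1.18 and 1.23) and Dnajb9 (1.26 and 1.2), and the disulphide isomerase gene Pdia4, with 153 against 93.1 CPM (1.64, 1.48 to 1.81) in the Advanced library and 156 against 96.2 CPM (1.63, 1.496 to 1.77) in the Early library. Txndc5 (0.630 and 0.682) and Sec11c (0.859 and 0.899) were lower. Beside this, the list of plasma cell RNA summed to 57.0 against 83.2 CPM (Advanced) and 49.0 against 66.9 CPM (Early). Of 7 measured B1 cell genes 2 lay above (Bhlhe40 and Ptpn22) and 3 below (Apoe, Vim and Lgals1), of 4 transitional genes 2 above (Cd24a and Ly6d) and 1 below (Vpreb3), of 4 age-associated B cell genes 2 above, and of 3 germinal centre genes 1 below (Irf8, 0.776 and 0.936). Among 28 measured B cell transcription factors 5 lay above, including Id2 (1.39 and 1.31) and Tcf4 (1.12 and 1.35), and 6 below. Of 7 cell cycle genes 2 lay below (Mcm5, 0.483 and 0.616, and Stmn1), of 8 interferon response genes 1 below (Ifi27l2a, 0.606 and 0.761), and of 12 lipid and cholesterol genes 0 lay on either side in both libraries. Cells with 4 or more UMIs of Ifit1, Ifit3, Ifit3b and Isg15 had been gated out of both sides.

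Few cells of the class held 5 or more UMIs of switched constant genes, as in the other gated B cells, and Ighd RNA was lower than in those. Of 8 measured constant genes 1 lay above 1 in both libraries and 5 below, beside 4.53% and 5.04% of all measured genes. Ighm had 2230.3 against 2147 CPM (1.04, 1.01 to 1.07) in the Advanced library and 2202 against 1970 CPM (1.12, 1.09 to 1.14) in the Early library. There were 5.54 Ighm UMIs per Ighd UMI in the class against 3.07 in other gated B cells (Advanced) and 5.57 against 2.80 (Early). CD21-low CD23-negative cells gave 5.40 and 4.22. Cells with 0 Ighd UMIs made up 16.6% (12.8% to 20.9%) of the class against 5.42% (4.77% to 6.13%) of other gated B cells in the Advanced library, and 14.7% (11.8% to 17.9%) against 5.12% (4.57% to 5.72%) in the Early library. The share was alike in CD21-low CD23-negative cells, at 16.9% (14.1% to 20.02%) (Advanced) and 13.4% (11.4% to 15.6%) (Early). Cells with 5 or more UMIs of switched constant genes made up 1.43% (0.465% to 3.30%) against 2.69% (2.23% to 3.21%) in the Advanced library and 0.537% (0.111% to 1.56%) against 0.862% (0.640% to 1.13%) in the Early library, intervals that overlap. Cells with more lambda than kappa constant UMIs made up 14.3% (10.8% to 18.4%) against 10.7% (9.76% to 11.6%) and 10.4% (7.97% to 13.2%) against 9.77% (9.02% to 10.6%), which overlap as well.

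Within the class a UMI of each marker gene was seen in only some cells. Whether the genes met in the same cells more often than their separate shares would give was not tested. With every cell thinned to 5000 UMIs, at least 2 of Fcrl5, Dtx1, Cd9, S1pr3 and Myof were seen in 25.1% (20.7% to 30.03%) of the CD21-high CD23-negative cells against 7.63% (6.85% to 8.45%) of other gated B cells in the Advanced library, and in 27.7% (24.1% to 31.6%) against 8.34% (7.64% to 9.08%) in the Early library. CD21-high CD23-positive cells gave 11.4% and 10.2%, CD21-low CD23-negative cells 14.0% and 16.3%, and T cells 2.63% and 4.12%. Per gene, a UMI of Fcrl5 was seen in 23.1% of the thinned class, 9.35% of other gated B cells and 0.375% of T cells in the Advanced library (median depths of 8042, 7241.5 and 10261 UMIs before thinning), and in 21.3%, 8.98% and 1.03% in the Early library (7143, 6448 and 8929 UMIs). Without thinning, Fcrl5 was seen in 33.4% against 14.2% of the class and other gated B cells (Advanced) and 31.3% against 12.5% (Early). T cells, which should lack Fcrl5, therefore gave the background for this gene, whereas Dtx1 was seen in 15.9% and 24.7% and Cd9 in 16.5% and 11.3% of thinned T cells and has no such background here. Cells of the class with at least 2 of the 5 genes had less Ighd than those with 0 of them, 366 against 446 CPM in the Advanced library and 295 against 480.3 CPM in the Early library. They had more Plac8, 862 against 702 CPM and 1075 against 619 CPM, and Cd1d1, 39.2 against 21.9 CPM and 57.5 against 23.3 CPM. In the Advanced library the intervals overlapped for Ighd (324 to 411 and 405 to 490 CPM) and Cd1d1 (26.4 to 56.0 and 13.6 to 33.5 CPM). The cells with at least 2 genes were also deeper before thinning, with medians of 8349 against 7611.5 UMIs (Advanced) and 7647 against 6787.5 UMIs (Early). Not every gene followed: Apoe, which was lower in the class than in other gated B cells, had 166 against 144 CPM and 360.5 against 186 CPM in this comparison, and Fcmr, also lower in the class, had 342 against 331 CPM and 413 against 428 CPM.

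The class made up a smaller share of the gated B cells in the Advanced library. It was 7.44% of 4704 gated B cells (6.71% to 8.23%) in the Advanced library and 8.79% of 6361 (8.10% to 9.51%) in the Early library, a ratio of 0.847 (0.745 to 0.962). Of all barcodes it was 4.27% and 6.78% (0.629, 0.553 to 0.717), beside 799 and 97 T cells gated by 3 or more UMIs of Cd3d, Cd3e and Cd3g and few B cell UMIs. Because Cr2 UMIs depend on depth, the shares were also read at like depth. At 5000 to 7500 UMIs they were 4.45% and 7.11% (0.626, 0.508 to 0.771), Advanced before Early. At 7500 to 10000 UMIs they were 12.8% and 15.1% (0.851, 0.702 to 1.03), and at 10000 to 15000 UMIs 7.24% and 9.57% (0.756, 0.534 to 1.07). With each cell thinned to 5000 UMIs the shares were 5.42% and 7.20% (0.753, 0.649 to 0.873). The Advanced share was the smaller at each depth, although the interval of the ratio held 1 in both deeper strata. As counted, CD21-high cells made up 34.7% and 33.1% of gated B cells (1.05, 0.992 to 1.10), and cells without an Fcer2a UMI made up 21.2% and 25.3% (0.836, 0.780 to 0.896), but the Advanced cells were the deeper ones. With each cell thinned to 5000 UMIs, a setting chosen after seeing the data, CD21-high cells made up 17.4% and 19.0% (0.918, 0.847 to 0.995) and cells without an Fcer2a UMI 30.1% and 31.9% (0.943, 0.891 to 0.997), so that both shares were slightly smaller in the Advanced library. Cells without an Fcer2a UMI were then 31.1% and 38.0% (0.820, 0.724 to 0.929) of CD21-high cells and 29.9% and 30.5% (0.979, 0.919 to 1.04) of CD21-low cells, the last with an interval that held 1. Without thinning and with 0 or 1 Fcer2a UMIs allowed in the class, the ratio of its share was 0.930 with an interval that held 1 (0.849 to 1.02).

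**Figure D4:**
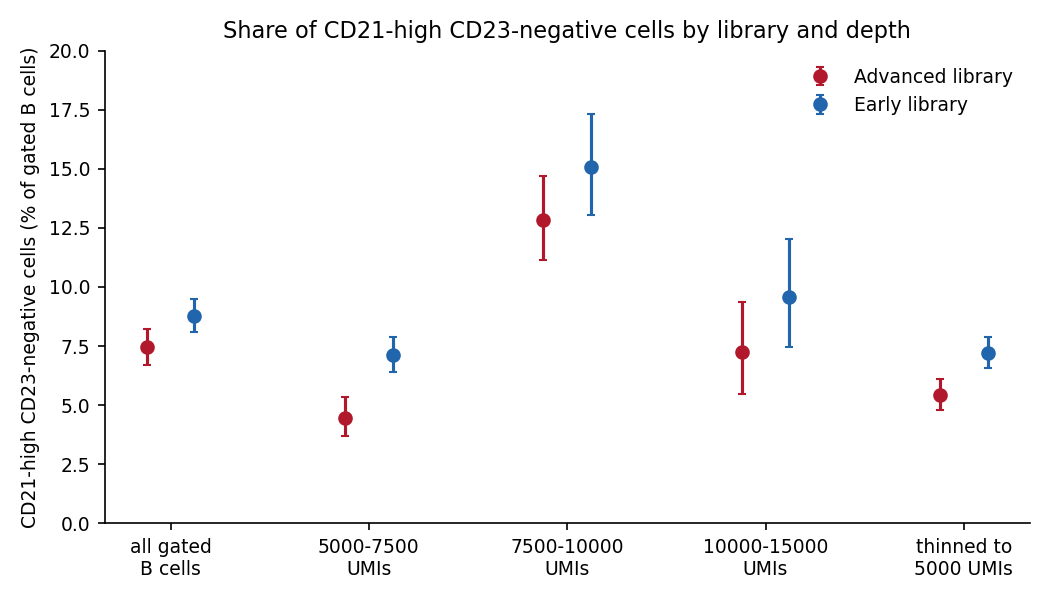
Share of gated B cells that were CD21-high CD23-negative (y axis, percent) in the Advanced and Early libraries, over all gated B cells, in 3 depth strata and after thinning to 5000 UMIs (x axis), with exact 95% counting intervals. The Advanced share lies below the Early share at each depth, 7.44% and 8.79% over all gated B cells.

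Within the class the libraries differed in few genes. Of 6980 genes at 10 CPM or more in either library, 9 had an interval wholly above 2-fold in Advanced over Early cells (0.129%) and 0 had one wholly below (0%). In the other gated B cells 12 of 6843 lay above and 0 below. Of the 9, 7 are known from other cells or from switched antibody: Trbc1, Trbc2 and Ccl5 of T cells, S100a8 and S100a9 of neutrophils, and Ighg2b and Ighg2c. Ccl5 had 19.8 against 2.35 CPM in Advanced against Early cells of the class (58 and 10 UMIs) and 19.3 against 1.24 CPM in the other gated B cells, beside 2044 and 580.1 CPM in T cells. S100a8 had 12.3 against 1.17 CPM in the class and 25.3 against 1.02 CPM in the other gated B cells, where 1 Advanced cell held 544 of 871 UMIs. Without the richest cell of each group the other gated B cells had 9.49 against 0.997 CPM. Ighg2b had 73.7 against 18.8 CPM in the class (3.93, 3.03 to 5.14) and 91.6 against 24.5 CPM in other gated B cells, beside 55.4 and 5.56 CPM in T cells, which make no antibody. The 7 genes were thus higher in Advanced cells in the other gated B cells too, and the part of free RNA in their ratios was not tested. Trbc1 and Trbc2, and Ighg2b and Ighg2c, are close copies whose reads may be shared.

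The remaining genes, Car2 and Stac2, had larger ratios in the class than in other B cells. Car2, a carbonic anhydrase, had 19.8 against 3.05 CPM in Advanced against Early cells of the class (58 UMIs in 37 cells and 13 UMIs in 13 cells), a ratio of 6.49 (3.51 to 12.9). Other gated B cells had 14.4 against 9.31 CPM (1.54, 1.35 to 1.77). By class these were 14.7 against 7.37 CPM in CD21-high CD23-positive and 12.8 against 6.20 CPM in CD21-low CD23-negative cells. CD21-low CD23-positive cells had 14.6 against 11.5 CPM. Stac2 had 10.2 against 1.88 CPM in the class (5.46, 2.44 to 13.8) and 9.95 against 7.95 CPM in other gated B cells (1.25, 1.07 to 1.46). Against other gated B cells, the class had ratios of 1.38 (1.03 to 1.81) for Car2 and 1.03 (0.684 to 1.497) for Stac2 in the Advanced library, and of 0.328 (0.173 to 0.567) and 0.236 (0.101 to 0.471) in the Early library, where both were lower. UMIs of both genes were held by 2 Advanced and 0 Early cells of the class. With cells thinned to 5000 UMIs, neither gene kept an interval wholly above 2-fold at 10 CPM or more, with ratios of 3.62 for Car2 and 2.49 for Stac2, and neither reached a minimum of 50 CPM. Stac2 also fell short with the cell richest in it left out, with the Cr2 threshold at 3 or at 6, and with 0 or 1 Fcer2a UMIs allowed (2.19). The difference between the classes was not tested.

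**Figure D5:**
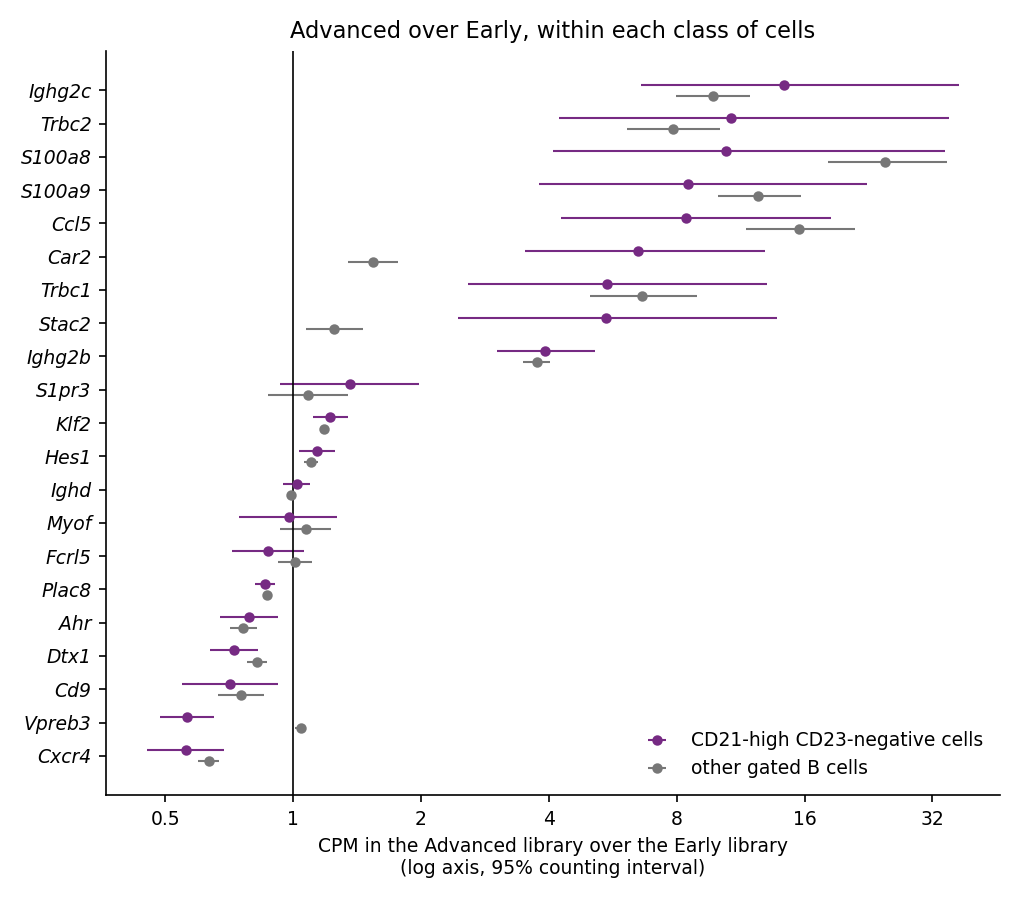
Ratio of the CPM in the Advanced library to that in the Early library (x axis, log scale) for the 9 genes beyond 2-fold and 12 further genes, within CD21-high CD23-negative cells and within other gated B cells, with 95% counting intervals. Car2 lies at 6.49 in the class and 1.54 in other gated B cells, and Vpreb3 at 0.564 and 1.04.

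Marginal zone genes were level or somewhat lower in Advanced cells of the class. Of 15, 0 had an interval above 1 and 7 had one below, where 8.27% of all 6980 genes had one above and 5.36% one below, with a median log2 ratio of -0.19, against -0.10 in the other gated B cells and 0.03 over all genes in the class. Dtx1 had 123 against 168 CPM (0.727, 0.639 to 0.827) in the class and 67.3 against 81.9 CPM (0.822, 0.780 to 0.867) in other gated B cells. Cd9 had 30.7 against 43.2 CPM (0.712, 0.547 to 0.920) and Ahr 84.3 against 107 CPM (0.790, 0.674 to 0.924) in the class, with ratios of 0.756 and 0.765 in other gated B cells. S1pr3 (1.36, 0.930 to 1.98), Myof (0.976, 0.748 to 1.27), Fcrl5 (0.874, 0.717 to 1.06) and Asb2 (1.07, 0.702 to 1.63) had intervals that held 1. Hes1 was slightly higher in Advanced cells (1.14, 1.03 to 1.26) while Dtx1 was lower, so these Notch targets did not share a direction. Cxcr4, the receptor for CXCL12, had 43.3 against 77.4 CPM (0.560, 0.453 to 0.689) in the class and 50.9 against 80.4 CPM (0.633, 0.597 to 0.671) in other gated B cells. Among the genes with the lowest ratios were the linker histone gene Hist1h1d (13.7 against 36.6 CPM, ratio 0.373) and the G protein signalling regulator gene Rgs10 (25.6 against 53.3 CPM, 0.481), neither with an interval wholly past 2-fold. Vpreb3, which takes part in assembly of the B cell receptor, had 86.0 against 152 CPM in the class (0.564, 0.486 to 0.653) but 239 against 229 CPM in other gated B cells (1.04, 1.01 to 1.08). In CD21-low CD23-negative cells it had 439 and 194 CPM (Advanced and Early), but in CD21-high CD23-positive cells 168 and 224 CPM and in CD21-low CD23-positive cells 229 and 243 CPM. The CPM of Vpreb3 was thus lower in the Advanced library in every class but the CD21-low CD23-negative cells. Among these, fewer cells held a UMI of it in the Advanced library (45.4%) than in the Early library (53.6%). Of their 2154 Advanced UMIs, 1488 lay in the 220 cells with 0 Cr2 UMIs.

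Summed RNA of other cell types was mostly no higher in the class than in other gated B cells. The list of follicular dendritic cells, stromal cells that display CD21 themselves, summed to 3.07 against 3.45 CPM in the Advanced library and 2.11 against 2.80 CPM in the Early library, with 5 and 3 of the 7 genes read at 0 in the class. Platelet RNA summed to 5.12 against 6.52 CPM and 4.93 against 6.08 CPM, with 5 and 4 of 6 genes at 0. Neutrophil RNA summed to 33.1 against 60.0 CPM (Advanced) and 4.93 against 5.32 CPM (Early). In the Advanced library 1 of the other gated B cells held 1036 of their 2069 neutrophil UMIs, and without the richest cell of each group the sums were 32.2 against 29.96 CPM. Erythroid RNA summed to 0.341 against 4.99 CPM and 3.28 against 7.34 CPM. The T cell list summed to 168 against 212 CPM and 117 against 142 CPM, the myeloid list to 352 against 336 CPM and 342 against 311 CPM, and the lymphatic endothelial list to 95.6 against 104 CPM and 97.6 against 98.5 CPM. Only the myeloid sum was higher in the class in both libraries. In the Early library 1 cell of the class held 67 of its 1457 myeloid UMIs. Without the richest cell of each group the myeloid sums were 348 against 332 CPM (Advanced) and 327 against 307 CPM (Early).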

How the data were processed

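Live cells of pooled PLNs were captured with 10x Genomics 3′ chemistry, 1 library per stage. The UMI counts are the filtered matrices that the authors deposited, with no normalization (32285 genes listed). Cell Ranger 6.0.1 stands in the deposited headers. Per the submitters' processing notes, the genome build was mm10 and the tools were Seurat 4.0.3 with Cell Ranger in versions 3.1 and 3.1.0, so which version made the matrices is unsettled. The libraries held 83148059 UMIs in 8201 barcodes (Advanced) and 67610110 UMIs in 8242 barcodes (Early).

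UMIs were summed over the cells of a class per library and given as CPM. Ratios carry exact conditional 95% intervals and shares exact Clopper-Pearson 95% intervals, for counting error only. A gene was measured at 10 CPM or more in either group, and counted where the interval lay wholly beyond 2-fold, for classes in both libraries. Single genes named beyond the lists were the 15 higher and 15 lower with intervals farthest from 1 and, by stage, the 10 highest and 10 lowest. Others, taken from the genes beyond 1.5-fold, and Car2, Stac2 and Vpreb3 beside their counts of cells, were chosen after their values were seen. The members and the gene lists were chosen with earlier results of these data known. Doublets were not called, and a limit of 10000 UMIs was tried instead. Thinning drew 5000 UMIs per cell (seed 1). Alternatives covered the Cr2 and Fcer2a limits, depth, minimum CPM, fold, totals, TMM factors, cell weights and the class compared with. Some genes of the lists are not reported here by name. Scripts were tested on simulated data. Python 3.11.15, numpy 2.4.6, scipy 1.17.1, pandas 2.3.3, matplotlib 3.10.9, R 4.3.3 and edgeR 4.0.16 (TMM factors only) were used. Gene positions are those of GENCODE on mm10 (GRCm38), and promoters those of RefSeq.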

Additional observations from a re-analysis of the deposited data

Results flagged for a closer look

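Genes whose ratios pointed opposite ways in the compared classes or libraries are given here. None of these differences was tested, since each library is 1 pool. For Advanced over Early, the ratio of CPM was below 1 in CD21-high CD23-negative cells and above 1 in the other gated B cells for Vpreb3 (0.564 and 1.04), Cfp, which encodes properdin (0.602 and 1.49), the linker histone gene Hist1h1b (0.469 and 1.10), Zfp281 (0.485 and 1.18), the replication clamp gene Pcna (0.793 and 1.19), the transcription factor gene Irf8 (0.883 and 1.07), Btg2 (0.824 and 1.04), the kappa constant gene Igkc (0.972 and 1.04) and the lambda constant gene Iglc1 (0.888 and 1.26). Among the other gated B cells, the CPM of Vpreb3 was higher in the Advanced library only in the CD21-low CD23-negative cells. Fewer of those cells held a UMI of it in the Advanced library (45.4%) than in the Early library (53.6%). For CD21-high CD23-negative cells over other gated B cells, the ratio was below 1 in the Advanced library and above 1 in the Early library for Pcna (0.791 and 1.18) and Mbtps2 (0.499 and 1.36).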

How the results depend on the processing

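No paired analysis was possible because each stage is 1 library and the labels give no replicate numbers. The Advanced over Early ratio of the share stayed below 1 under all 6 alternatives, between 0.629 (all barcodes as the denominator) and 0.930 (Fcer2a at 0 or 1). The count of genes beyond 2-fold between the class and other gated B cells was 11, and became 7 with Fcer2a at 0 or 1, 5 after thinning, 1 at a minimum of 50 CPM, 24 with no minimum, 41 at 1.5-fold, 33 with each cell weighted equally, 27 against CD21-low CD23-positive and 3 against CD21-high CD23-positive cells. Against CD21-low CD23-negative cells it was 10 (2 higher and 8 lower), of which 2 were among the 11. With 1 library left out, and so only the other one read, it was 23 to 24. Left out, the cell richest in each gene took Cd9 from the count. The count of genes beyond 2-fold by stage was 9, and became 1 at 50 CPM, 20 with no minimum, 22 at 1.5-fold and 63 with each cell weighted equally. Against CD21-low CD23-negative cells the ratio changed sides for Ighm (0.980), Cd24a (0.968), Ciita (1.09), Mzb1 (0.959), Id2 (0.973) and Mef2c (1.02). Against CD21-high CD23-positive cells it did so for Cr1l (0.985) and Apoe (1.11), and after thinning for Ighg2b (1.06). The cause of these changes was not tested. Without the richest cell of each group, a setting chosen after seeing the data, the Advanced ratio of the class to other gated B cells changed sides for neutrophil RNA (1.07), S100a8 (1.23) and S100a9 (1.04), since 1 of the other gated B cells held much of each. The Early levels of Car2 and Stac2 in the class rest on 13 and 8 UMIs.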

Other observations

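Among cells of the class with a dominant kappa variable gene (at least 2 UMIs and 80% of the Igkv UMIs), Igkv2-109 was that gene in 10 of 42 Advanced cells (23.8%, 12.1% to 39.5%), against 16 of 473 other gated B cells (3.38%, 1.95% to 5.44%). In the Early library it was 3 of 50 (6.00%, 1.25% to 16.5%), against 10 of 401 (2.49%, 1.202% to 4.538%), intervals that overlap. CD21-low CD23-negative cells gave 6 of 71 (8.45%, 3.16% to 17.5%) and 2 of 75 (Advanced and Early), an Advanced interval that overlaps that of the class, CD21-low CD23-positive cells 8 of 256 and 7 of 216, and CD21-high CD23-positive cells 2 of 146 and 1 of 110. The gene was singled out after its values were seen, variable genes share sequence, and clones and mice cannot be told apart in a pool.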
